A study of Mus musculus with 2 samples.

Results

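Cytokine and chemokine ligands are the secreted or membrane-bound proteins through which cells of the bone marrow instruct one another. The ligand genes described here were taken by name from the array's annotation: the numbered Ccl, Cxcl, Il, Csf and Tnfsf genes, together with Kitl, Thpo, Lif, Tnf, Lta and Ifng. The rule found 62 of 12488 probe sets. Of these, 2 are the manufacturer's control probe sets for Il10 and Il4 and were left out of the counts. The remaining 60 probe sets cover 52 of 8251 named genes, 14 of them CC chemokines, 8 CXC chemokines, 18 interleukins, 3 colony-stimulating factors, 7 members of the tumour necrosis factor (TNF) family, and Kitl and Ifng. Thpo and Lif were not analysed here.

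RNA was measured in 2 samples of mouse bone marrow cells sorted as Lin-c-kit+Sca1+ (LSK), that is, without lineage antigens and with the receptor Kit and the antigen Sca-1 on the surface. This fraction holds the haematopoietic stem cells and the multipotent progenitors that descend from them. Both samples form 1 group, and the labels name no treatment, genotype, strain, age or second condition. Separate animals or sorts are not stated, so the spread between both samples may be technical, and no difference was tested in this design of 1 group.

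In marrow, stem cells are mostly the receivers of such signals. Stem cell factor (Kitl) and Cxcl12 come chiefly from stromal and endothelial cells, whereas macrophages, T cells and mast cells are textbook sources of inflammatory cytokines. Chemokines bind G protein-coupled receptors and guide cell movement. Interleukins and colony-stimulating factors act through cytokine receptor chains on survival, growth and lineage choice. TNF family ligands act through death-domain or TRAF-binding receptors. Several chemokine and TNF genes are classical targets of NF-kappaB and are transcribed quickly after a stimulus.

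Signals are array intensities after quantile normalization. The array has no direct measure of absence, so each signal was set beside 2 levels. The control level was the 90th percentile of 15 probe sets for bacterial genes, 12.1 in sample 1 and 8.92 in sample 2. The organ-gene level was the 90th percentile of 94 probe sets for genes of liver, brain, muscle, eye, germ cells and other organs, 31.8 in sample 1 and 20.4 in sample 2. A gene passed a level in both samples where at least 1 probe set, the same one, exceeded it in each. Ccl1, whose 2 probe sets passed the control level in different samples (13.2 in sample 1 by one, 14.1 in sample 2 by the other), was therefore not counted. Signals under 20, a floor that held 57.8% of values in sample 1 and 57.7% in sample 2, were set to 20 before a fold was taken, so a fold against such a signal is written "at least". Kit, whose protein the cells were sorted on, had signals of 25.8 and 19.3, above the control level and below the organ-gene level in both samples. A signal below the organ-gene level on this array therefore does not show that a gene is silent. Whether genes at background are silent was not tested.

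Most ligand genes were at background by the rule given below. Of 52 genes, 10 (19.2%) exceeded the control level in sample 1 and in sample 2, compared with 57.0% of all 8251 genes. Only 4 (7.69%) were above the organ-gene level in both samples, against 32.6% of all genes. These 4 were the chemokine gene Ccl9, the colony-stimulating factor genes Csf1 and Csf3, and Il16. A further 10 genes (19.2%) were above the organ-gene level in sample 2 only, a pattern shared by 16.1% of all genes, and 0 were above it in sample 1 only, against 3.36% of all genes. Cxcl12 lay between both levels. The other 37 genes (71.2%, against 38.3% of all genes) were at background, meaning not above the control level in both samples and above the organ-gene level in neither. Of these 37, 23 were above the control level in neither sample, and 14 exceeded it in at least 1.

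**Figure D1:**
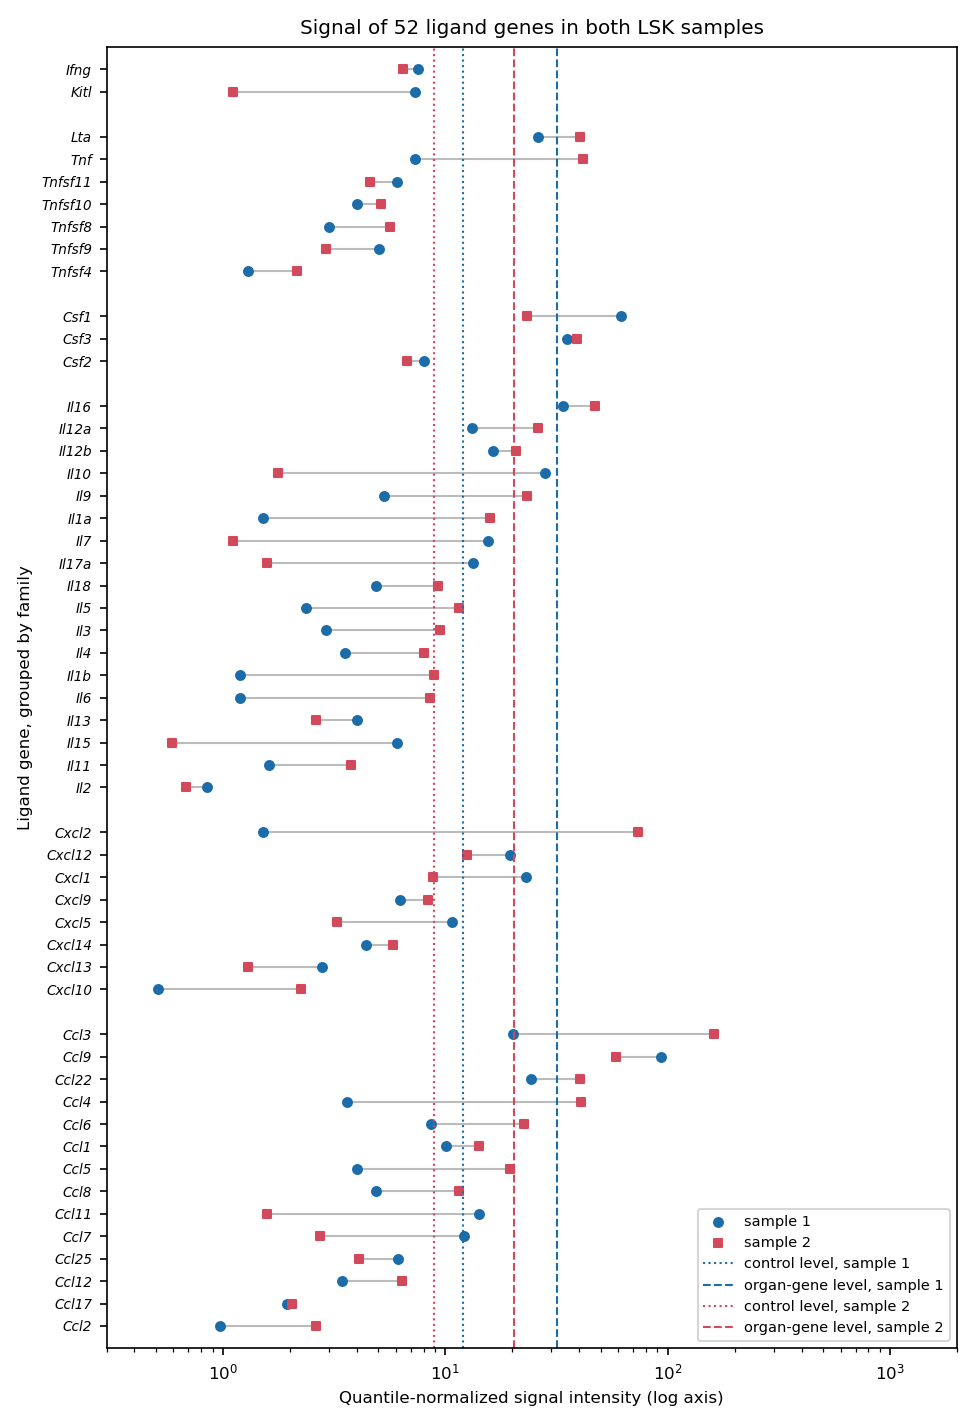
Quantile-normalized signal (log axis) of each of 52 ligand genes, by family, in sample 1 (circles) and sample 2 (squares), each by the probe set of greatest mean log2 signal; dotted lines mark the control level and dashed lines the organ-gene level of each sample. Ccl9, Csf1, Csf3 and Il16 lie right of the dashed line of their own sample in both samples, and 37 genes are at background.

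The ligand genes passed both levels about as often as genes that belong to other organs. Of 74 organ genes on the array, 17 (23.0%) exceeded the control level in both samples. Of the 74, 7 (9.46%) exceeded the organ-gene level, which their own probe sets define. Among these 7, Pvalb had 251 and 194, above each ligand gene in both samples. Of the receptor genes for these ligands a larger share passed than of the ligand genes. Of 51 receptor genes, 18 (35.3%) were above the control level and 8 (15.7%) above the organ-gene level. Both shares were below those of all genes, 57.0% and 32.6%. The number of ligand genes above the organ-gene level moved with the percentile that defines it. At the 75th percentile 10 ligand genes exceeded it in both samples, as did 54.5% of all genes. At the 95th percentile Ccl9 was the 1 ligand gene left, with 15.2% of all genes.

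**Figure D2:**
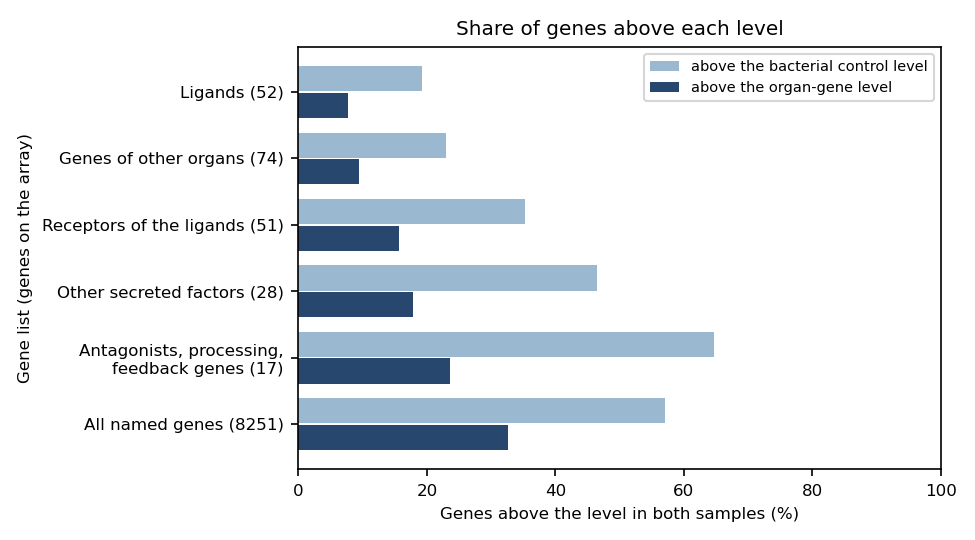
Percentage of genes above the bacterial control level (light bars) and above the organ-gene level (dark bars) in both samples, for the ligands, 4 other gene lists and all named genes, with the number of genes on the array in brackets. The ligands (19.2% and 7.69%) stand next to the genes of other organs (23.0% and 9.46%), and all named genes reach 57.0% and 32.6%.

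Ccl9, also called MIP-1 gamma, is a chemokine of myeloid cells that binds Ccr1. Sample 1 gave a signal of 93.7 and sample 2 one of 58.8, a 1.59-fold difference, and the mean log2 signal was 6.21 ± 0.48 (SD, n = 2). Both samples were well over their organ-gene levels, and Ccl9 stayed above that level in both samples under each alternative that was computed. Ccr1 itself had signals of 8.05 and 12.2 and was at background.

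Csf1 encodes macrophage colony-stimulating factor, which acts on monocytes and macrophages and can instruct myeloid fate in stem cells. Its signals were 61.9 and 23.3 (mean log2 signal 5.25 ± 1.0, SD, n = 2), so that sample 1 was 2.66-fold higher and sample 2 was next to its organ-gene level. With the higher organ-gene level, 31.8, applied to both samples, Csf1 passed in sample 1 only. The gene of its receptor, Csf1r, had signals of 108 and 39.5 and was also higher in sample 1. Of 10 monocyte and macrophage markers on the array, 6 exceeded the control level in both samples, a share near the 57.0% of all genes. Of these 10 markers, 3 were 2-fold or more higher in sample 1 and 0 in sample 2 (6.62% and 6.44% of all genes). Their summed signal was 508 in sample 1 and 268 in sample 2. Lyz2 had 104 and 26.9 and Cd14 152 and 65.8, while the macrophage genes Adgre1, Mrc1, Marco and Itgam lay between 1.30 and 9.4 and none of the 10 was at 0. Whether such cells have a part in the Csf1 signal was not tested. In sorted populations, fewer cells of a type and less RNA per cell cannot be told apart.

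Csf3 encodes granulocyte colony-stimulating factor, the main driver of neutrophil production. It had signals of 35.4 and 39.3 (mean log2 signal 5.22 ± 0.11, SD, n = 2), 1.11-fold apart and close to the organ-gene level in sample 1. The gene of its receptor, Csf3r, was above that level too, with 56.6 and 49.2. The organ genes Myog (33.3 and 54.2) and Lhb (44.8 and 79.7) also passed that level in both samples. Csf2, the granulocyte-macrophage factor, had 8.05 and 6.72 and was at background in both samples.

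Il16 encodes a precursor from which a chemoattractant for Cd4-bearing cells is cleaved. Its signals were 33.7 and 47.2 (mean log2 signal 5.32 ± 0.34, SD, n = 2), 1.40-fold apart and just over the organ-gene level in sample 1. The organ gene Myog had similar signals, 33.3 and 54.2. Cd4 had 6.95 and 9.82 and was at background.

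Among CC chemokines, Ccl3, Ccl4 and Ccl6 gave signals above the organ-gene level in sample 2. Ccl3 (MIP-1 alpha), a chemokine that also restrains the cycling of haematopoietic progenitors, reached 161 in sample 2 against 20.1 in sample 1, a difference of 8.03-fold. Ccl4 (MIP-1 beta), an inflammatory chemokine, had 3.63 and 40.7, at least 2.04-fold higher in sample 2. Ccl6, a myeloid chemokine that like Ccl9 binds Ccr1, had 8.61 and 22.5. For each of these 3 genes sample 1 was the lower, and for Ccl4 and Ccl6 it was below the control level. In the gene order of GRCm38.p6, Ccl9, Ccl6, Ccl3 and Ccl4 follow one another with 0 other protein-coding genes between them, and Ccl5 precedes Ccl9 in the same run. Ccl5 (RANTES), a T cell chemokine, had 4.02 and 19.6, below the organ-gene level of 20.4.

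In the second run of CC chemokine genes on chromosome 11, each gene was at background by that rule, though some exceeded the control level in 1 sample. It holds the monocyte chemoattractants Ccl2, Ccl7, Ccl12 and Ccl8, the eosinophil chemokine Ccl11 (eotaxin) and Ccl1, again with 0 other protein-coding genes between neighbours. Ccl2 had 0.970 and 2.63 and Ccl12 3.4 and 6.4, below the control level in both samples. Ccl7 (12.1 and 2.72) and Ccl11 (14.2 and 1.58) exceeded it in sample 1, and Ccl8 (4.9 and 11.6) in sample 2. Ccl1 exceeded it in each sample, by different probe sets. Of the CC chemokines on chromosome 8, Ccl22, which attracts Ccr4-bearing T cells, had 24.3 and 40.4, above the control level in both samples and above the organ-gene level in sample 2. Ccl17, the other Ccr4 ligand, had 1.94 and 2.06, and the thymic chemokine Ccl25 6.14 and 4.08. Background CC chemokine probe sets ranged from 0.970 to 19.6.

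Of 8 CXC chemokines, Cxcl2 (MIP-2), a neutrophil attractant that binds Cxcr2, was above the organ-gene level in 1 sample. It had 1.51 in sample 1 and 73.2 in sample 2, at least 3.66-fold apart. The next gene, Cxcl1, also a Cxcr2 ligand, differed the other way, with 23.2 and 8.82 by one probe set and 16.5 and 3.86 by the other. It was above the control level in sample 1 alone. Cxcl12 (SDF-1), which holds stem cells in the marrow through Cxcr4, had 19.6 and 12.5 by 1 of its 3 probe sets. The others gave 1.51 and 0.937, and 10.1 and 3.0, all below the control level. Cxcr4 had 21.1 and 16.5. The interferon-induced genes Cxcl9 and Cxcl10, the B cell attractant Cxcl13, Cxcl5 and Cxcl14 were at background.

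Interleukin genes were mostly at background, 14 of 18. Beside Il16, both subunit genes of interleukin 12 exceeded the control level in each sample. Il12a had 13.2 and 26.2, and Il12b 16.4 and 20.8, so both were above the organ-gene level in sample 2 alone, Il12b by a small margin. Ebi3, which pairs with the Il12a product in interleukin 35 and is no member of the named families, had 92.3 and 104. Il9, a T cell and mast cell factor, had 5.32 and 23.3. Of 8 mast cell and basophil markers, 2 (25%) passed the organ-gene level in both samples, against 32.6% of all genes. The summed signals of the 8 were 208 and 179.

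The interleukins that act on early progenitors showed no signal above the control level in both samples. Il3, which supports multipotent progenitors in culture, had 2.90 and 9.47. Il6 had 1.19 and 8.58, and Il7, the lymphoid growth factor made by stroma, 15.6 and 1.11. The inflammatory genes Il1a and Il1b had 1.51 and 15.8, and 1.19 and 8.93, with the higher value in sample 2. Il10 had 28.0 and 1.76 by its own probe set, and 3.85 and 3.66 by the control probe set left out of the counts. For Il4 the 4 probe sets lay between 2.16 and 10.4, and the control probe set gave 8.88 and 9.15. Il4, Il13, Il5, Csf2 and Il3, the type 2 cytokine cluster of chromosome 11, were all at background by the same rule. Il3 and Il5 (2.36 and 11.6) exceeded the control level in sample 2. Il2, the T cell growth factor, had 0.852 and 0.681.

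In the TNF family, Tnf and its neighbour on chromosome 17, Lta, were above the organ-gene level in sample 2. Tnf had 7.32 and 41.7, at least 2.08-fold higher in sample 2. Lta (lymphotoxin alpha) had 26.1 and 40.2, 1.54-fold apart, by one probe set, but 6.77 and 4.82 by another. The receptor genes that both ligands share passed the level in both samples, Tnfrsf1a with 62.8 and 83.5 and Tnfrsf1b with 46.1 and 58.2. The costimulatory ligands Tnfsf4, Tnfsf8 and Tnfsf9, the death ligand Tnfsf10 (TRAIL) and the osteoclast factor Tnfsf11 (RANKL) had signals between 1.30 and 6.05, all at background. Of 11 T and NK cell markers, 0 were above the organ-gene level in both samples, against 32.6% of all genes. Gzmb (24.7 and 25.3) and Prf1 (16.8 and 32.3) exceeded it in sample 2. The summed signal of the 11 was 105 in sample 1 and 109 in sample 2.

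Kitl and Ifng were at background. Kitl, the ligand of Kit, had 7.32 and 1.11, and Ifng, the interferon of T and NK cells, 7.51 and 6.48. Both values of each gene were below the control level of their sample. Of 11 markers of stroma and endothelium, the known sources of Kitl, 3 (27.3%) were above the organ-gene level in both samples, against 32.6% of all genes. These were Col1a1, Col1a2 and Pecam1. The summed signals of the 11 were 357 and 355.

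Of 52 ligand genes, 4 were at least 2-fold higher in sample 2 (7.69%, against 6.44% of all genes) and 1, Csf1, in sample 1 (1.92%, against 6.62%). The former were Ccl3, Ccl4, Cxcl2 and Tnf. Ccl4 was under 2-fold with the deposited scaling, and Tnf and Csf1 were with an offset of 32 in place of the floor. With the floor, the share higher in sample 2 was near that of all genes, but genes at the floor in both samples could not differ. After the floor, 12 ligand genes had any higher signal in sample 2 and 4 in sample 1, against 2394 and 2435 of 8251 genes. Without a floor, 17 of 52 ligand genes were 2-fold or more higher in sample 2 and 11 in sample 1, against 18.5% and 19.1% of all genes. Whether the ligands differ as a group was not tested. The median difference was 0 on the log2 scale, both for the ligands and for all genes, because 36 of 52 ligand genes (69.2%) were at the floor in both samples, against 41.5% of all genes. With the same organ-gene level of 31.8 in both samples, 6 ligand genes were above it in sample 2 only (11.5%, against 7.45% of all genes), namely Ccl22, Ccl3, Ccl4, Cxcl2, Lta and Tnf, and 1, Csf1, in sample 1 only (1.92%, against 7.71%).

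Set beside the ligands were immediate early genes, which are transcribed within minutes of a stimulus. Among 16 such genes on the array, 14 were at least 2-fold higher in sample 2 and 0 in sample 1, against 6.44% and 6.62% of all genes. The summed signal of the 16 was 845 in sample 1 and 6735 in sample 2. This list was chosen after the values were known. Nr4a1 had 4.41 and 545, and Fos 41.7 and 839. Of 17 genes for cytokine antagonists, processing and feedback, 4 were at least 2-fold higher in sample 2 and 0 in sample 1, against the same 6.44% and 6.62%. The NF-kappaB inhibitor gene Nfkbia had 44.1 and 228, the cytokine signal inhibitor Socs3 12.9 and 162, and Zfp36, whose product destabilises Tnf mRNA, 26.1 and 132. Il1r2, a decoy receptor for interleukin 1, had 7.22 and 60.5. The part of these genes in the ligand signals was not tested. Of 8 neutrophil markers, 2, Camp (92 and 269) and Ngp (60 and 275), were 2-fold or more higher in sample 2 and 0 in sample 1. S100a8 had 301 and 459, S100a9 56.8 and 55.3, and Mmp8 and Mmp9 were under the floor in both samples. The summed signal of the 8 was 556 in sample 1 and 1136 in sample 2, and their part was not tested either. Apart from Ctss (74.3 and 100), the monocyte and macrophage markers had the lower signal in sample 2. The part of such cells in the signals of Ccl3, Ccl4, Cxcl2 and Tnf was not tested.

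**Figure D3:**
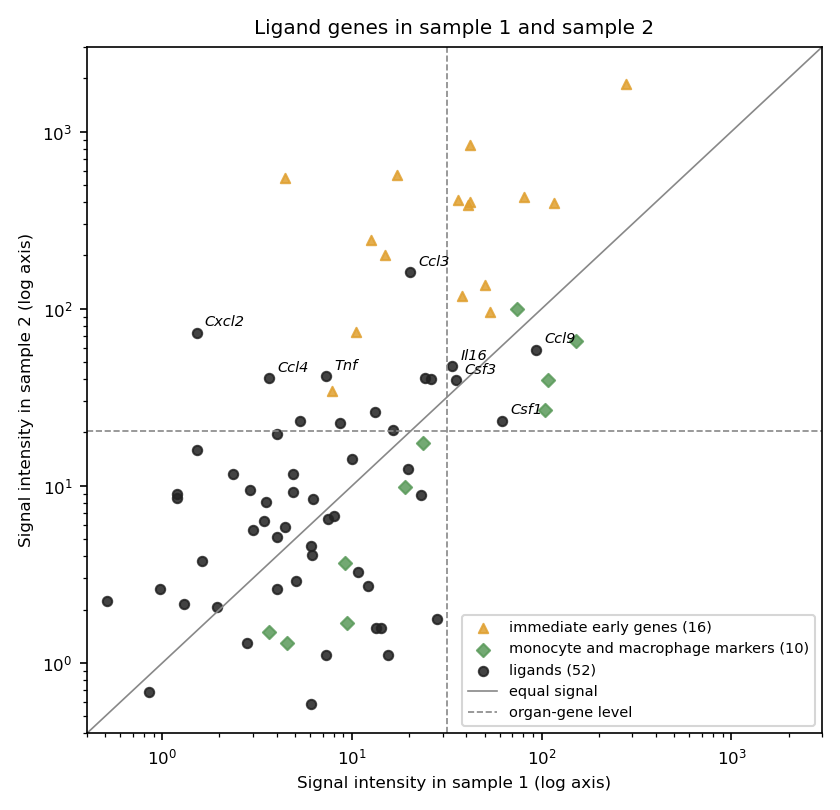
Signal in sample 1 against sample 2 (both log axes) for 52 ligand genes (circles), 16 immediate early genes (triangles) and 10 monocyte and macrophage markers (diamonds); the solid line marks equal signal and dashed lines the organ-gene level of each sample. Ccl3, Ccl4, Cxcl2 and Tnf, named because they were 2-fold or more higher in sample 2, lie above the solid line, and Csf1 lies below it. The 16 immediate early genes, a list chosen after the values were known, also lie above the solid line.

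The promoters of Ccl3, Cxcl2 and Tnf, which had more signal in sample 2, are shown with that of Ccl9, which passed the level in both samples. Each is the 250 bases before the gene's start, from RefSeq on GRCm38.p6, read on the gene's strand. Capitals mark matches to the NF-kappaB consensus on either strand. The windows are chr11:83649379-83649628 (minus strand) for Ccl3, chr5:90903649-90903898 (plus) for Cxcl2, chr17:35202008-35202257 (minus) for Tnf and chr11:83578637-83578886 (minus) for Ccl9.
Ccl3: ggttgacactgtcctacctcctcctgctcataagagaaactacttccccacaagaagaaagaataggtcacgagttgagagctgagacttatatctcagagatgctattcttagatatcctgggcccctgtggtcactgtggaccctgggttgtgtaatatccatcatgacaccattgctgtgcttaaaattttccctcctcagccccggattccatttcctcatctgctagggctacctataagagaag
Cxcl2: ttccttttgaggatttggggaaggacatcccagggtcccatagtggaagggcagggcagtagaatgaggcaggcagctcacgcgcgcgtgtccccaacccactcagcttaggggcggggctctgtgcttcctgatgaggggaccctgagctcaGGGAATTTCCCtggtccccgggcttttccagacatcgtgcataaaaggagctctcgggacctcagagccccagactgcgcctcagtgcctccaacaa
Tnf: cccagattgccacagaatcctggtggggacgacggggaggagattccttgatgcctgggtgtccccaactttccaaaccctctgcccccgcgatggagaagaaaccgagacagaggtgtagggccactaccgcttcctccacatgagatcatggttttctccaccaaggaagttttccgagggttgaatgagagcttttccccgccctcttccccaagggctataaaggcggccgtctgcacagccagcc
Ccl9: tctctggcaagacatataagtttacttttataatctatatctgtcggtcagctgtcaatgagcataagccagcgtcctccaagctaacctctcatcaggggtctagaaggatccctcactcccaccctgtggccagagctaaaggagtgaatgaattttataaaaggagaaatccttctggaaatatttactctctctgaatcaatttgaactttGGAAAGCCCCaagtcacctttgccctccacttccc

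The Cxcl2 window holds 2 overlapping matches to the NF-kappaB consensus, the first beginning at base -97, where -1 is the base just before the gene's start. Ccl9 holds 1 match at -35, and the windows of Ccl3 and Tnf hold 0. Tnf has the letters TATAAA at -29 and Ccl9 at -92. Ccl9 also has the AP-1 core TGANTCA at -53, outside its NF-kappaB match. Promoters of 40 of the 52 ligand genes were matched, 46 in all because some genes have several. Of these, 9 (19.6%) held the NF-kappaB consensus, against 7.25% of 32851 promoters, 8 (17.4%) the AP-1 core on either strand, against 6.75%, and 15 (32.6%) TATAAA on the gene's strand, against 7.59%. These are matches of letters, with no measurement of binding. The ligand genes with the NF-kappaB letters were Ccl9, Csf1 and Il16, above the organ-gene level in both samples, Cxcl2, above it in sample 2, and Ccl1, Cxcl1, Cxcl10, Il6 and Kitl, which were at background.

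Among other secreted factors outside the named families, a larger share than of the ligand genes gave signals, a difference that was not tested. Of 28 on the array, 13 (46.4%) exceeded the control level in both samples and 5 (17.9%) the organ-gene level. Both shares were below those of all genes, 57.0% and 32.6%. Those 5 were Ebi3, Tgfb1, a strong restraint on stem cell cycling, with 36.9 and 57.9, Igf1 with 49.4 and 70.7, Bmp4 with 42.2 and 27.5, and the growth factor gene Grn with 54.2 and 32.9. Ltb, the membrane partner of Lta, had 8.33 in sample 1 and 134 in sample 2, at least 6.71-fold higher. Flt3l, the ligand of Flt3, had 5.4 and 3.7.

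Few ligand and receptor pairs had both genes above the organ-gene level. Only 4 of 52 ligand genes and 8 of 51 receptor genes passed it in both samples, against 32.6% of all genes. Of 74 organ genes, 7 (9.46%) passed it in both samples too. No expected number of pairs was computed. Among 68 ligand and receptor pairs on the array, covering 48 ligands, both genes passed in both samples for 2 pairs, Csf1 with Csf1r and Csf3 with Csf3r. In 6 pairs the receptor passed in both samples and the ligand did not. These included Il6 with Il6ra (44.1 and 61.3 for the receptor) and Il10 with Il10rb (205 and 125). The other listed receptor chains of these ligands, Il6st (17.9 and 19.5) and Il10ra (2.24 and 4.08), did not pass. The rest were Tnf and Lta, each with Tnfrsf1a and Tnfrsf1b, and both ligands were above the level in sample 2 only. In 2 pairs, Ccl9 with Ccr1 and Il16 with Cd4, the ligand alone passed, and in 58 pairs neither did.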

How the data were processed

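The deposited values were signal intensities on a linear scale, 1 per probe set of an Affymetrix mouse array. Per the labels, the RNA had gone through 2 rounds of amplification. The software was not given in the sources used here, and both deposited columns had a mean of 53.9. Precision is limited by having 2 arrays.

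Both columns were quantile-normalized. Gene names came from the platform annotation. Of 12422 probe sets besides 66 controls, 10833 named 1 gene, 396 several and 1193 none, and only the first entered the counts. Each gene took the value of the probe set with the greatest mean log2 signal after the floor of 20, with ties settled by the mean without it. The members and gene lists were chosen with earlier results of these data known. Named with values were the ligands above the organ-gene level in at least 1 sample, the main niche and inflammatory factors, and examples from the other lists, some of them chosen after their values were seen. No test was run. Call rules were run on simulated data with signals far above or far below the levels. How the rules call signals near the levels or the floor was not tested. Alternatives varied the scaling, levels, floor, probe sets and samples. Python 3.11.15, numpy 2.4.6 and pandas 2.3.3 were used.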

Additional observations from a re-analysis of the deposited data

Results flagged for a closer look

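A probe set left out of the counts because it names 10 genes, Ccl19 and its pseudogene among them, gave 53.55 in sample 1 and a similar 55.2 in sample 2, above the organ-gene level in both samples. Which of these genes gave the signal was not tested.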

How the results depend on the processing

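The 4 ligand genes above the organ-gene level in both samples, Ccl9, Csf1, Csf3 and Il16, were the same genes with the deposited scaling, with median scaling and under the rule that each probe set of a gene must pass. The count was 10 with the 75th percentile of organ-gene probe sets (54.5% of all genes) and 1 with the 95th (15.2%). It was 3 with the higher level in both samples (28.1%), an alternative chosen after seeing the data. With 1 sample alone it was 4 in sample 1 and 14 in sample 2, against 36.1% and 48.9% of all genes. The number above the control level, 10, was 17 with the 75th percentile of bacterial probe sets (72.5% of all genes). It was 17 with sample 1 alone (64.3%) and 23 with sample 2 alone (71.0%). The 10 genes above the organ-gene level in sample 2 only were 6 with the higher level in both samples (7.45% of all genes). They were 2, Ccl3 and Cxcl2, with the 95th percentile (4.97%). These 2 counts were also chosen after seeing the data.

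Without a floor, 28 ligand genes were 2-fold or more apart, 17 higher in sample 2 and 11 in sample 1, with a median log2 difference of 0.46. Over all genes 37.7% were then 2-fold apart. With an offset of 32 the numbers were 3, 3 and 0, against 5.62%, 2.86% and 2.76% of all genes. Among the 10 ligand genes above the control level in both samples they were 2, 1 and 1. Of all 4707 genes above that level they were 972, 453 and 519. Of the 52 ligand genes, 2, Cxcl12 and Lta, had a mean log2 signal that moved by more than the SD between samples when all their probe sets were averaged, and 0 did with the deposited or the median scaling. No paired analysis was possible because there is 1 group. A difference between the samples cannot be computed from 1 sample alone.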
